A study of Canis lupus familiaris with 2 samples.

Results

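The miR-99/100 and miR-125 families were examined in serum of normal and dystrophic dogs. Dog spots of the chip were taken when the number in their name was that of one of these families, whatever the letter after it. This gave 4 of the 291 dog miRNAs, cfa-miR-99a, cfa-miR-99b, cfa-miR-125a and cfa-miR-125b, out of 5 names listed. cfa-miR-100 was not analysed here, as no spot of that name was among the 291. Normal serum was a pool from 3 unaffected male dogs, and dystrophic serum was a pool from 3 affected males. All came from CXMD_J, a dog colony with X-linked muscular dystrophy that serves as a model of Duchenne muscular dystrophy, all were 2 months of age, and the labels name no treatment. Each pool was labelled with Cy5 and read on 1 array, so differences between dogs were averaged before the measurement, the difference between the pools has no replicate check, and no p-value was computed.

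miRNAs pair with messenger RNAs mainly through a short seed and lower their translation or stability, and the members of a family share that seed. miR-125 is the mammalian relative of lin-4, a timing gene of the nematode, and its genes lie in conserved clusters with let-7 and with miR-99 or miR-100. In serum, miRNAs are carried in vesicles and protein complexes, and release from more cells cannot be told apart from more RNA released per cell.

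All 4 miRNAs were detected in both pools, as were 48.8% of the 291 dog miRNAs, but 0 of the 4 and 7.22% of the 291 were when the local background around each spot was taken off. Their dystrophic over normal ratios ran from 1.11 to 1.29, but the side of 1 on which they fell changed with the scaling between the arrays for cfa-miR-125a and cfa-miR-125b. None of these ratios was above 2 or at 0.5 or less, the limits that the study applied to its arrays. Spot minus local background, from which no ratio was taken, was lower in the dystrophic pool for cfa-miR-99a and cfa-miR-125b. The 95% spot-noise interval held 1 for each of the 4, so no difference between the pools was resolved. A reduction to 0.5 lay outside all 4 intervals, while an elevation to 2 lay outside that of cfa-miR-125b alone.

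These values start from the scanner intensity, which rises with the labelled RNA bound to a spot. Blank spots averaged 118 and 116 on the normal and dystrophic arrays. This background was taken off, and each array was multiplied by a factor that brings the median of its detected dog miRNAs to 25, which gives the normalized signal. Detection means a spot brighter than the blank mean plus 2 SD, equal to a normalized signal of 8.19 (normal) or 6.81 (dystrophic). Of the blanks themselves, 9.38% (normal) and 8.59% (dystrophic) passed this limit, so detection of a dim spot is not firm. Since every dog miRNA had a single spot, its error was estimated from other spots, namely the spread of the blanks and the 6.67% coefficient of variation between repeat spots of bright control probes. Errors are given as the SD of a spot and, like the intervals, they do not cover variation among dogs, extractions or arrays.

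cfa-miR-99a and cfa-miR-99b represent the miR-99 family, which is known to target the growth kinase mTOR. For cfa-miR-99a the spots read 152 in the normal and 170 in the dystrophic pool. The normalized signals were 35.1 ± 7.31 and 44.6 ± 6.12, respectively. The dystrophic value was the higher one, and the errors overlapped. The ratio was 1.27 (interval 0.799 to 2.26), or 0.35 on the log2 scale.

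For cfa-miR-99b the spots read 141 and 154 in the same order. The normalized signals were 24.2 ± 7.11 (normal) and 31.2 ± 5.74 (dystrophic), again with overlapping errors. Its normal value lay just under the median of the detected dog miRNAs of that array. The ratio was 1.29 (interval 0.683 to 3.19), or 0.37 on the log2 scale, and this interval was the widest of the 4.

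cfa-miR-125a and cfa-miR-125b represent the miR-125 family. The spots of cfa-miR-125a read 148 in the normal and 160 in the dystrophic pool, and the normalized signals were 31.2 ± 7.23 and 36.3 ± 5.87. These values lay within 1 SD of each other. The ratio of cfa-miR-125a was 1.17 (interval 0.683 to 2.26), or 0.22 on the log2 scale. It was 0.958 when the arrays were scaled on miRNAs detected in both pools and 0.922 with quantile normalization.

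cfa-miR-125b, which is known to target IGF-II and to restrain the differentiation of myoblasts, had spots of 181 and 204. The normalized signals were 65.7 ± 8.20 (normal) and 72.6 ± 7.22 (dystrophic), and these also overlapped. The ratio was 1.11 (interval 0.813 to 1.54), or 0.14 on the log2 scale, with the narrowest interval of the 4. It was 0.908 and 0.848 under the same changes of scaling. Members of a family are near identical in sequence, so one spot may bind labelled RNA of another member, to an uncertain extent.

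**Figure D1:**
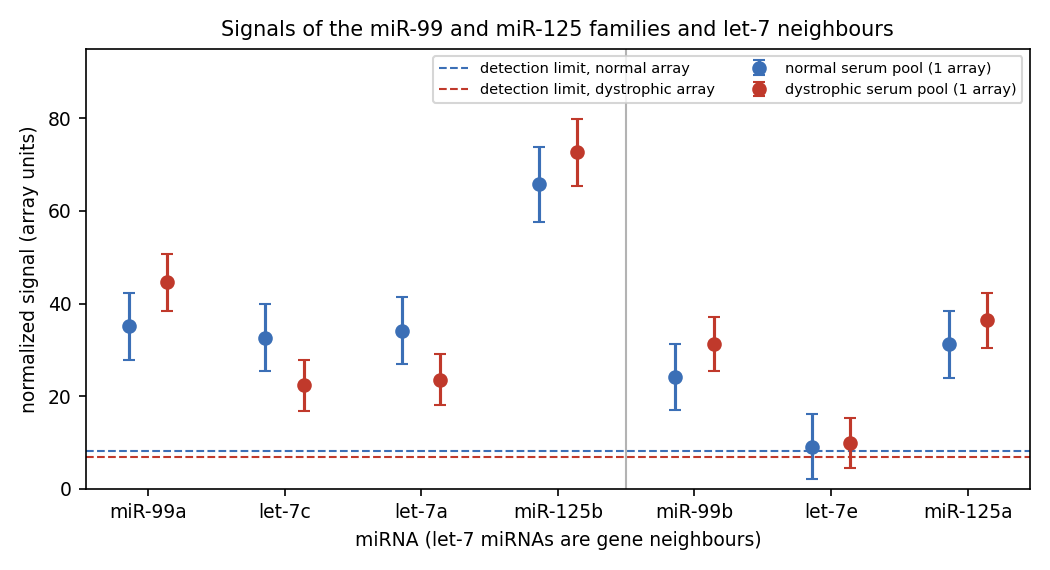
Normalized signal (vertical axis, array units) of the 4 family members and of 3 let-7 miRNAs whose genes neighbour theirs, in the normal (blue) and dystrophic (red) serum pool, 1 array each, with the SD of a spot as bars, the detection limits as dashed lines, and a grey line between the miR-99a/miR-125b clusters on the left and the miR-99b/miR-125a cluster on the right. The bars of the 2 pools overlap for each family member, and let-7e, at 9.11 and 9.89, lies close to the limits.

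The ratios of the 4 were also placed among those of the whole chip. Detection in both pools was reached by 4 of the 4 and by 142 of the 291 dog miRNAs. A ratio above 2 or of 0.5 or less was found for 0 of the 4 and for 27 of the 142, or 19.0%. With so few members, a count of 0 beside that share is not a result about these families. A ratio above 1 was found for 4 of the 4 and for 58.5% of the 142. After scaling on miRNAs detected in both pools it was found for 2 of the 4 and 39.4% of the 142, and after quantile normalization for 1 of the 4 and 37.3% of the 142, so the count fell together with that of the chip.

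The median ratio was 1.22 for the 4 and 1.09 for the 142. The quartiles of the 142 were 0.806 and 1.58, and all 4 members lay between them. From the lowest to the highest member the range held 18 of the 142, members included. Since scaling moves all ratios of an array pair together, the log2 ratios were also taken relative to the median of the 142, 0.13. The differences were 0.22 for cfa-miR-99a, 0.24 for cfa-miR-99b, 0.09 for cfa-miR-125a and 0.02 for cfa-miR-125b. The members thus sat near the middle of the chip.

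How clearly a spot stood out from its background was read from spots without a dog miRNA. At least as bright as cfa-miR-99b were 1.78% of the 1408 blanks on the normal array and 0.355% on the dystrophic one. For cfa-miR-125a the shares were 0.923% and 0.213%, and for cfa-miR-99a 0.781% and 0.213%. Few blanks therefore reached these spots, and fewer did so on the dystrophic array. For cfa-miR-125b the shares were 0.142% and 0.0710%.

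The 32 negative-control spots gave a less clear separation in the normal pool, where 8 reached cfa-miR-99b, 3 reached cfa-miR-125a, 2 reached cfa-miR-99a and 0 reached cfa-miR-125b. In the dystrophic pool 0 of them reached any member. Of 181 positions marked as having no probe, 9 in the normal and 6 in the dystrophic pool reached cfa-miR-99b, 7 and 5 reached cfa-miR-125a, 5 and 3 reached cfa-miR-99a, and 1 and 0 reached cfa-miR-125b. In both pools each member was thus within the range of at least 1 spot that carries no dog miRNA, which for cfa-miR-125b in the dystrophic pool was a single blank. Within its own block of the array, however, each member was brighter than all 44 blanks in both pools. The brightest blank of these blocks read 131 in the normal and 146 in the dystrophic pool.

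The scanner also recorded a local background around each spot. Around the members it ran from 104 to 144 in the normal and from 104 to 158 in the dystrophic pool, above the 95th percentile of that around blanks, 94.2 and 95.5. The normal spot of cfa-miR-125a was 1.03 times its local background, compared with a median of 1.53 for blanks of that array. In scanner units, spot minus local background was 48.2 (normal) and 46.0 (dystrophic) for cfa-miR-99a, and 48.4 and 46.0 for cfa-miR-125b. It was 10.9 and 49.2 for cfa-miR-99b, and 4.22 and 10.9 for cfa-miR-125a. The order of the pools by this measure thus differed among the members. With local background taken off, cfa-miR-99b was detected in the dystrophic pool alone, and the other 3 members in neither, so no ratio was taken. Only 21 of the 291 dog miRNAs were then detected in both pools, so most of the 142 were lost as well, and the loss is not a result about the members.

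Beyond their names, the families share the arrangement of their genes, which was looked up in RefSeq for the assembly UU_Cfam_GSD_1.0, for names and neighbours alone. The 4 miRNAs matched 6 genes by name, 2 each for cfa-miR-99a and cfa-miR-125b, whose outputs the array cannot separate. A let-7 gene was the nearest miRNA gene on at least 1 side of all 6, and they formed 3 clusters. MIRLET7C lay between MIR99A-1 and MIR125B-2, MIRLET7A-2 between MIR99A-2 and MIR125B-1, and MIRLET7E between MIR125A and MIR99B. Of the 6 genes, 5 lay inside a longer gene, and MIR125A did not. MIR99A-1 and MIR125B-2 were both inside the long non-coding RNA gene LOC102154980, MIR99B and MIR125B-1 were inside other long non-coding RNA genes, and MIR99A-2 was inside the protein-coding gene BLID.

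let-7 promotes differentiation, and its maturation is known to be blocked by LIN28, itself a target of let-7 and miR-125. The 3 let-7 miRNAs of these clusters were detected in both pools, compared with 48.8% of the chip, and 0 of the 3 were above 2 or at 0.5 or less, compared with 19.0% of the 142, counts too small to set these miRNAs apart. let-7c had normalized signals of 32.7 ± 7.26 in the normal and 22.3 ± 5.55 in the dystrophic pool, with a ratio of 0.684 (interval 0.322 to 1.37). let-7a had 34.2 ± 7.29 and 23.6 ± 5.58, with a ratio of 0.691 (interval 0.340 to 1.33). Both ratios were below 1, and remained so under the 11 alternatives that gave them, but their intervals held 1. Local background subtraction is not among those 11. Divided by its local background, the let-7c spot read 1.26 in the normal and 1.57 in the dystrophic pool. That of let-7a read 0.988 and 1.22. Both were thus higher in the dystrophic pool by this measure, which limits their ratios and the comparisons made with them. let-7a has 2 genes in the annotation, and let-7 miRNAs resemble each other closely, so these spots too may share labelled RNA.

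Neighbours were compared by dividing their ratios, which cancels any factor applied to a whole array. cfa-miR-99a over let-7c gave 1.86 (interval 0.822 to 4.21), and cfa-miR-99a over let-7a gave 1.84 (0.833 to 4.07). cfa-miR-125b over let-7c gave 1.62 (0.783 to 3.34), and over let-7a 1.60 (0.796 to 3.22). All 4 intervals held 1, and the 4 values rest on the same 4 miRNAs, so an unequal change of neighbours was not resolved. Without background subtraction the 4 values were between 1.17 and 1.18. Divided by local background instead, the spots of cfa-miR-99a and cfa-miR-125b were lower, and those of both let-7 miRNAs higher, in the dystrophic pool.

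In the third cluster let-7e had normalized signals of 9.11 ± 6.96 and 9.89 ± 5.39 and a ratio of 1.09, with no bounded interval. Its normal spot was reached by 8.10% of the blanks. Of the 32 negative-control spots, 21 in the normal and 25 in the dystrophic pool reached let-7e, so little can be read from this neighbour. Between the families, cfa-miR-99a over cfa-miR-125b gave 1.15 (0.644 to 2.06) and cfa-miR-99b over cfa-miR-125a gave 1.11 (0.461 to 2.67). Both intervals held 1, and the first value was 0.995 without background subtraction, so the higher ratios of the miR-99 family were not resolved from those of the miR-125 family.

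**Figure D2:**
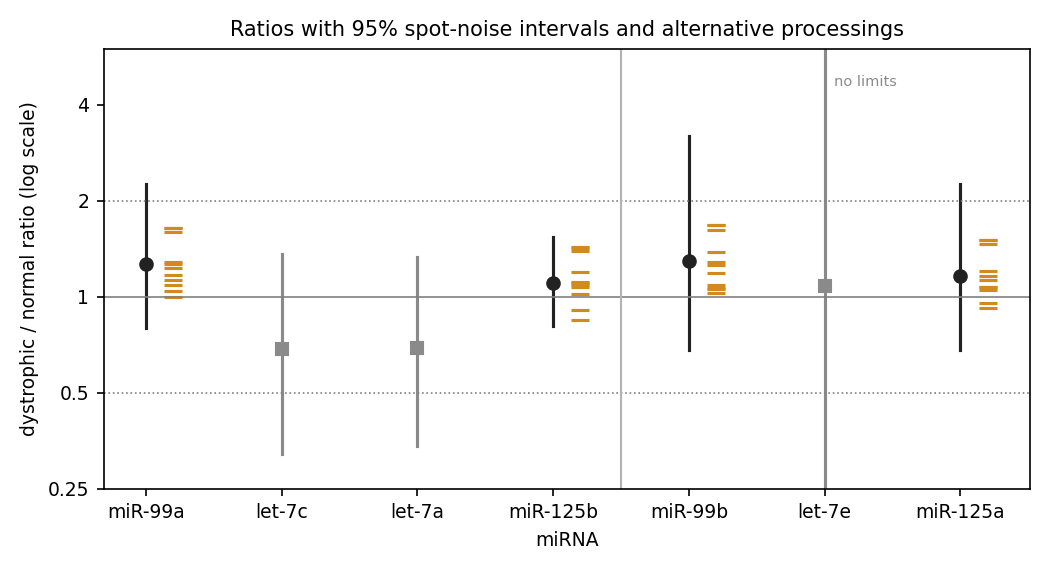
Dystrophic over normal ratio (vertical axis, log scale) of the 4 family members (black circles) and 3 let-7 miRNAs of their clusters (grey squares), with 95% spot-noise intervals as bars, ratios of the members under 11 alternative processings as orange dashes, and dotted lines at 2 and 0.5. The bars of all 4 members cross 1, and their dashes run from 0.848 to 1.68, below 1 for cfa-miR-125a and cfa-miR-125b under 2 of the alternatives.

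The miR-10 miRNAs, encoded in the HOX clusters, are related in sequence to miR-99 and miR-100. miR-10a had normalized signals of 9.97 and 9.73 in the normal and dystrophic pools, a ratio of 0.976 without a bounded interval. miR-10b had 25.5 ± 7.13 and 52.7 ± 6.40, a ratio of 2.06 (interval 1.23 to 4.67). The ratio of miR-10b was above 2 under 6 of 11 alternatives and ran from 1.23 without background subtraction to 2.70 with untrimmed blanks. Its interval overlapped those of cfa-miR-99a and cfa-miR-99b. The 3 other miRNAs nearest in log2 ratio to the members' median of 0.28 were miR-345, miR-211 and miR-346, with ratios of 1.22, 1.21 and 1.21. Likeness here means the smallest difference of log2 ratios, each from 2 arrays.

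miRNAs known from particular cells were read in the same pools. Of 6 muscle miRNAs, 5 were detected on each array, with a summed normalized signal of 80.0 in the normal and 6616 in the dystrophic pool and the highest signal for miR-133b. The 5 detected in the normal pool were close to background, each being reached by between 5 and 21 of the 32 negative-control spots, and the related miR-133 spots, which make up most of the dystrophic sum, may bind the same labelled RNA. miR-1 was not detected in the normal pool, and miR-499 was not detected in the dystrophic pool. Of 5 red-cell miRNAs, miR-486 was not analysed here, and 2 in the normal and 3 in the dystrophic pool were detected. Their summed signal was 1457 and 324, highest for miR-451, and miR-144 was detected in neither pool. miR-185 went the other way from the sum, with 1.99 (not detected) in the normal and 11.4 in the dystrophic pool. miR-223 of platelets and myeloid cells had signals of 206 and 113, miR-122 of liver had 8.63 and 8.14, and miR-126 of endothelium was detected in neither pool. The muscle and red-cell sums thus differed in opposite directions between the pools, and their part in the values of the miR-99 and miR-125 families was not tested.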

How the data were processed

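The authors deposited the scanner intensity of each spot, a median without normalization, and a table of globally normalized intensity values. Settings of their 3D-Gene Extraction software are not given in the sources used here. The blank mean was taken after 71 of 1408 blanks, 5% rounded up, were trimmed at each end. Detection also required a spot not marked unusable. The factors were 1.04 (normal) and 0.827 (dystrophic). Recomputed signals differed from the deposited table by at most 0.0491 and 0.0498, with the same detection for 291 of 291 miRNAs on each array. Intervals are those of Fieller, from the central 95% of all blanks (SD of 6.66 and 6.47) and 10 control probes at least 5 times as far above the blanks as the limit on both arrays; for divided ratios they were taken on the log scale. The steps were tested on simulated data. Named were the members, let-7a, let-7c, let-7e, the miR-10 miRNAs, the 3 nearest in log2 ratio, and the muscle, red-cell, liver, platelet and myeloid, and endothelial lists. Members and lists were chosen with earlier results of these data known. Sequences were not used here. Software was Python 3.11.15 with numpy 2.4.6, pandas 2.3.3 and matplotlib 3.10.9, and limma 3.58.1 in R 4.3.3 for normexp.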

Additional observations from a re-analysis of the deposited data

How the results depend on the processing

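Of 14 alternatives 13 were run, and another scanner gain was not, because 1 signal per spot was given. With local background subtraction 0 of the 4 miRNAs, and 21 of all 291, were detected in both pools, and the cause was not tested. A signal of at least 25 in both pools left 3 of the 4 and 71 of the 291. The number past 2-fold was 0 under the 12 alternatives that left a member with a ratio, while over the chip it ran from 7 without background subtraction to 42 with spike controls, out of 142. In the 11 alternatives with recomputed ratios, 44 of 44 lay inside their spot-noise intervals and 4 were below 1, those of cfa-miR-125a and cfa-miR-125b after quantile normalization and after scaling on miRNAs detected in both pools. The 11 leave out local background subtraction and include the deposited values, which nearly equal the main ones. Several others only multiply a whole array by 1 factor, and the intervals are wide, so this count is a weak check. Ratios ran from 1 to 1.65 for cfa-miR-99a, 1.03 to 1.68 for cfa-miR-99b, 0.922 to 1.51 for cfa-miR-125a and 0.848 to 1.43 for cfa-miR-125b. The median log2 ratio of all miRNAs detected in both pools shifted by 0.33 without scaling, 0.38 with spike controls, -0.28 with the common miRNAs and -0.39 with quantile normalization. Relative to that median the members lay 0.02 to 0.24 above it under the first 3, where 1 factor per array cannot change this distance. They lay 0.02 to 0.30 above it with quantile normalization and 0.02 to 0.08 above it without background subtraction. No paired analysis was possible because there was a single array per condition, and no replicate could be left out. Signal over background limits the ratios. Among the 4 members the interval was widest for cfa-miR-99b, and the spot nearest to its local background was the normal spot of cfa-miR-125a.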
